A study of Mus musculus with 14 samples.

Results

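Replacing the C-terminal domain of EBF1 with the TA1 domain of GATA3 was compared with wild-type EBF1 by where the chromatin remodeller Brg1 was called on mouse chromatin. The regions described are the Brg1 peaks called in only 1 of these 2 libraries, chosen by overlap alone. A wild-type (wt) peak that shared no base with any F-GATA3 peak was counted as lost, and an F-GATA3 peak that shared no base with any wt peak was counted as F-GATA3-only. Of 29354 wt peaks 6743 were lost, which is 23% (exact 95% interval 22.5 to 23.5%), and of 25072 F-GATA3 peaks 2346 were F-GATA3-only, which is 9.36% (9.0 to 9.72%). These 9089 regions were taken from 54426 peaks in both lists, and from 196179 peaks in the 9 lists of the series.

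EBF1 is a transcription factor that opens chromatin and switches on the early B-cell programme together with E2A and Pax5. Brg1, the product of Smarca4, is the ATPase of BAF complexes, which use ATP to slide or evict nucleosomes and so expose enhancers and promoters. GATA3 is a factor of T cells, type 2 helper cells and group 2 innate lymphoid cells, and its transactivation domains lie outside its zinc fingers, so that the TA1 domain alone brings no GATA DNA-binding domain with it.

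The cells were C57BL/6 fetal liver progenitors, EBF1 -/- and sorted as c-kit+, from embryos of day 16 to 18. They were infected with pMys retroviruses carrying an EBF1 version and GFP, then grown for 14 to 20 days on OP9 stromal cells with IL7, SCF and Flt3, as the labels name them. The endogenous gene was thus missing in every group, and EBF1 came from the vector. Besides wt and F-GATA3, both labelled as pro-B cells, there were dC (without the C-terminal domain) and dPLD (residues 480 to 520 removed), both labelled as partly blocked before the pro-B stage, and the empty vector, labelled as blocked before it. Chromatin was fixed with EGS and 2% formaldehyde and precipitated with an antibody to Brg1. Further lists, for Brg1 and for EBF1 itself, came from a pro-B cell type transformed with Abelson murine leukemia virus (A-MuLV) whose EBF1 had been swapped for wt or dC. For the A-MuLV libraries the labels give 1% formaldehyde, so fixation differed from that of the fetal liver cells. Each group had 1 library. No difference could therefore be set against a spread between replicates, no test was made, and a difference between EBF1 versions and one between libraries cannot be told apart. Intervals cover counting error only. Read depth is not known from peak lists, and where no peak was called Brg1 may still have been present. The markers were checked through the peaks near them, since expression was not measured here. All 32 B-lineage genes had a Brg1 peak within 10 kb both with wt and with F-GATA3, and of 11 stromal genes 2 and 1 had one. Of 18 T-lineage genes 16 and 15 had one, and of 14 myeloid genes 11 and 10. Over all protein-coding genes 62.9% had one with wt. Such counts do not tell the cell type.

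Sequence was read only under Brg1 peaks at gene starts, since RefSeq promoter windows were the only sequence used here (GRCm38.p6, 250 bases before to 50 after each start). Such windows were overlapped by 764 of 6743 lost peaks (11.3%) and 252 of 2346 F-GATA3-only peaks (10.7%). The summit fell in a window for 362 and 121 peaks. The promoters below are those of the protein-coding genes with the highest fold among peaks whose summit fell in such a window, the 2 highest of each class. Each line gives the 250 bases before the start, 5′ to 3′ along the gene, with capitals for matches to any of 6 motifs on either strand. The palindrome that EBF1 dimers bind was searched as TCCCNNGGGA. GATA factors were given by the letters AGATAA, or by TGATAA in the alternative form. ETS factors such as PU.1 were given by the short core GGAAG, which other motifs can overlap. RUNX factors were given by the letters TGTGGT. For E proteins such as E2A the searched letters were CAGGTG, and as the other E-box form CAGCTG. For AP-1, the Fos and Jun dimer, the searched letters were TGANTCA. Ank2, which encodes a membrane adaptor of the spectrin skeleton, had a lost peak of fold 9.46 and Lca5, which encodes a ciliary protein, one of 9.50. Rbm24, which encodes an RNA-binding splicing factor of muscle, had an F-GATA3-only peak of fold 7.26 and Hlx, which encodes a homeobox factor, one of 6.78.
Lca5 lost, chr9:83441100-83441349, minus strand: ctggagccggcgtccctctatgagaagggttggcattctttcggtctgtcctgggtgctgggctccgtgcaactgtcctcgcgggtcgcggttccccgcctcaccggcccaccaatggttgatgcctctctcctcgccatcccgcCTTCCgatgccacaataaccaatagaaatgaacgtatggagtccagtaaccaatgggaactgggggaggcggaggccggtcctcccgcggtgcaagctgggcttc
Ank2 lost, chr3:126998453-126998702, minus strand: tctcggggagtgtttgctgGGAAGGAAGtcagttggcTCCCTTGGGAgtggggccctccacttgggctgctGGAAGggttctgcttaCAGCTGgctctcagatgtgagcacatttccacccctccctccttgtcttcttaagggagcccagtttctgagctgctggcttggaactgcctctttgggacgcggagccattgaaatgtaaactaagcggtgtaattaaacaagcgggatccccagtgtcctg
Rbm24 F-GATA3-only, chr13:46418050-46418299, plus strand: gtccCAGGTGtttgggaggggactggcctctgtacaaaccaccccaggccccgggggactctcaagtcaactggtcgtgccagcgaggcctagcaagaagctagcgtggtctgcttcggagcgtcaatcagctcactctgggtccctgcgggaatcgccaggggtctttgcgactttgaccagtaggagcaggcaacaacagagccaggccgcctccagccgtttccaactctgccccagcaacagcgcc
Hlx F-GATA3-only, chr1:184732494-184732743, minus strand: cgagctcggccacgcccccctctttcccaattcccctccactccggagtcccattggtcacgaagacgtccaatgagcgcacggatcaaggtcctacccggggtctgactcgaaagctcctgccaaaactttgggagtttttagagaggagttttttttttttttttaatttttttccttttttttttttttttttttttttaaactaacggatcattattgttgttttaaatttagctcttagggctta
The Ank2 window holds the EBF1 palindrome, 3 ETS matches, of which a pair overlaps by 1 base, and an E protein match. The Lca5 window holds a lone ETS match in reverse orientation, the Rbm24 window an E protein match, and the Hlx window no match but long runs of T. The Lca5 and Ank2 sites were still called with dC (folds 8.25 and 5.22) and dPLD (6.26 and 5.88). The Rbm24 site was called in no other fetal liver list, and the Hlx promoter was called with dC (4.51), dPLD (4.96) and the empty vector (4.61). Fold here is the authors' fold enrichment of a peak's summit over its local background, used to describe peaks and to rank them within a list. Where folds of a site or gene are given for several lists, they were not scaled between libraries. Fold levels differed between lists, with medians of 8.00 for kept wt peaks and 6.98 for shared F-GATA3 peaks, so such values do not measure a change in Brg1.

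Across promoter windows the EBF1 palindrome was rare in every class. Of all 32851 windows 0.904% (0.805 to 1.01%) held it, against 1.06% (0.874 to 1.28%) of the 10358 windows under a kept wt peak, 1.58% (0.888 to 2.60%) of the 948 under a lost peak and 1.29% (0.352 to 3.26%) of the 311 under an F-GATA3-only peak. These intervals overlap. The GATA match was present in 18.6% of all windows, in 8.63% under kept peaks (8.10 to 9.19%), in 10.3% under lost peaks (8.47 to 12.5%) and in 12.9% under F-GATA3-only peaks (9.35 to 17.1%). Base composition moved with these shares: median GC was 62.0% under kept, 58.7% under lost and 59.0% under F-GATA3-only peaks and 48.7% under neither wt nor F-GATA3 peaks, and its part in the shares was not tested. The ETS match was found in 71.4% of all windows and in 76.8%, 77.5% and 74.3% of those under kept, lost and F-GATA3-only peaks. The E protein match was found in 32.9% of all windows and in 28.4%, 34.6% and 36.7% of those classes. RUNX matches were in 16.8% of all windows and in 12.2%, 13.4% and 15.1% of the classes, and AP-1 matches in 7.81% and in 4.25%, 3.16% and 5.79%. A match describes letters only.

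Most regions of both classes were low and narrow peaks. The median fold was 5.62 for lost peaks against 8.00 for kept wt peaks, and 5.52 for F-GATA3-only against 6.98 for shared F-GATA3 peaks. Median widths were 637 and 1277 bp in wt, and 623 and 1208 bp in F-GATA3. Both lists stop at a −log10 q of about 10.0, q being the peak caller's adjusted p-value, and 84.3% of lost and 89.9% of F-GATA3-only peaks lay under 20. High peaks were few: 74 lost and 31 F-GATA3-only peaks had a fold of 10 or more, beside 6506 kept wt peaks. Since the cut at overlap chose the members, its edge is given as a description: 17 kept wt peaks shared under 100 bp with an F-GATA3 peak, and 19 lost peaks had an F-GATA3 peak within 100 bp. The median lost peak lay 10.6 kb from the nearest F-GATA3 peak, and the median F-GATA3-only peak 9.04 kb from the nearest wt peak. The F-GATA3 list was the shorter. With both lists held to the same number of peaks, those with the highest −log10 q, 15.6% of wt peaks were lost and 14.8% of F-GATA3 peaks were F-GATA3-only; lists of equal length give nearly equal numbers on both sides by construction, so these values say nothing of why the F-GATA3 list was shorter. With a −log10 q of at least 20 in both lists, 30.6% were lost and 9.32% were F-GATA3-only. Under that rule a peak counts as absent even where the other list has a peak under 20. With the minimum set only in the list counted, 5.90% of wt peaks were lost and 1.71% of F-GATA3 peaks were F-GATA3-only.

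Wt peaks away from gene starts were lost more often than peaks at them. Of 8267 wt peaks that overlapped a promoter window 9.24% (8.63 to 9.89%) were lost, against 28.4% (27.7 to 29.0%) of 21087 that did not. Among the latter, 26.4% of 11621 within genes and 30.7% of 9466 between genes were lost. In 10 bins of about equal size by wt fold, the share lost over all wt peaks went from 48.0% in the lowest bin through 54.5%, 43.2%, 34.1%, 22.0%, 13.2%, 8.68%, 3.88% and 1.75% to 0.136% in the highest, whose folds were 13.0 or more. Weighted to the folds of all wt peaks, the shares at and away from promoter windows were 10.2% and 27.6%. Peak width moved with position, the median being 1546 bp at promoter windows and 929 bp away from them, and wide peaks were lost less often. Within 4 bins of width, from the narrowest to the widest, the shares were 49.4% and 54.9%, 18.8% and 25.6%, 7.90% and 11.8%, and 2.24% and 2.99%, so the contrast was smaller at like width. The intervals overlapped in the narrowest bin (44.4 to 54.4% and 53.7 to 56.1%) and in the widest (1.79 to 2.78% and 2.46 to 3.59%). Among peaks with a −log10 q of at least 20 in both lists it was 26.4% against 32.7%, with F-GATA3 peaks under 20 not counted as overlap.

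**Figure D1:**
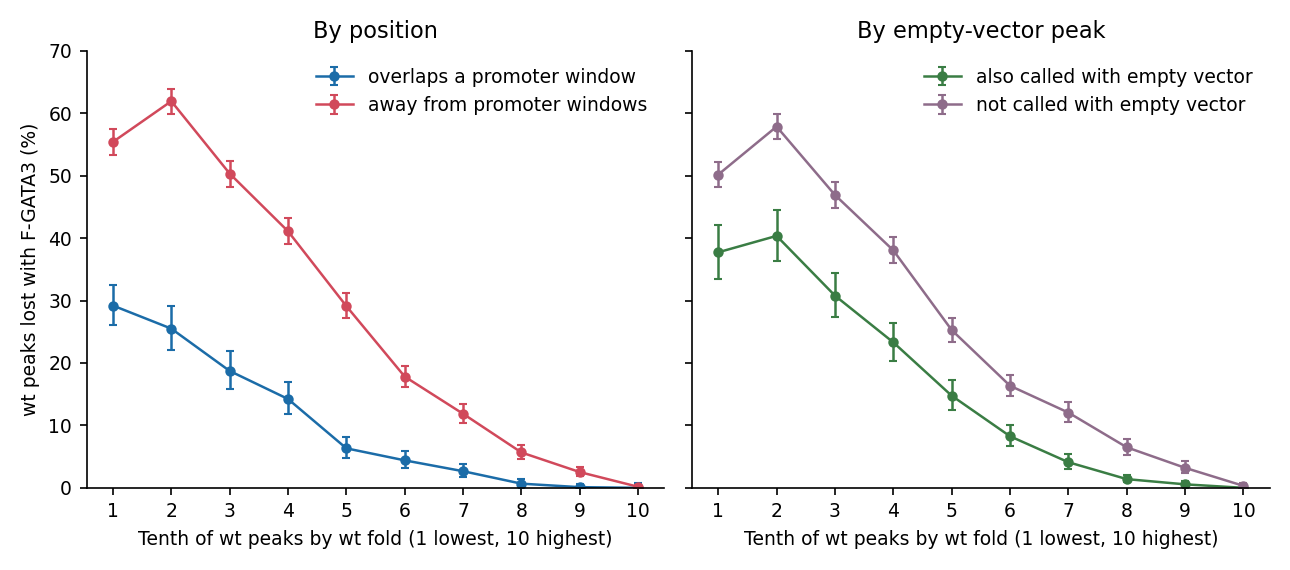
Share of wt Brg1 peaks lost with F-GATA3 (y axis, percent) in 10 bins of wt fold (x axis, lowest to highest), with exact 95% intervals; the left panel parts peaks by overlap with a promoter window and the right panel by overlap with an empty-vector peak. Shares go from 48.0% over all peaks of the lowest bin to 0.136% in the highest, and from the lowest bin to bin 9 the peaks at promoter windows and those called with the empty vector lie below the others.

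Peaks that stood without any EBF1 were also kept more often. Of the wt peaks that overlapped an empty-vector peak 10.5% (9.97 to 11.1%) were lost, against 30.0% (29.3 to 30.6%) of those that did not, and 16.1% against 25.7% after weighting to the same folds. At promoter windows the shares were 3.29% with and 14.8% without an empty-vector peak, and away from them 14.9% and 34.5%. Lost peaks were called in the other fetal liver lists less often than kept peaks: 59.9% with dC, 54.4% with dPLD and 16.6% with the empty vector, against 90.7%, 92.3% and 41.9% of kept peaks. Of the lost peaks 3046 were called with both dC and dPLD, 2083 with neither, and 1932 (28.7%) in no other fetal liver list. F-GATA3-only peaks were called in 44.6% with dC, 37.2% with dPLD and 17.4% with the empty vector, and 1040 of them (44.3%, 42.3 to 46.4%) were in no other fetal liver list. That last group had a median fold of 5.73 and reached 18.3. The wt list was used for each of these comparisons, so a low wt peak can count in several of them.

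**Figure D2:**
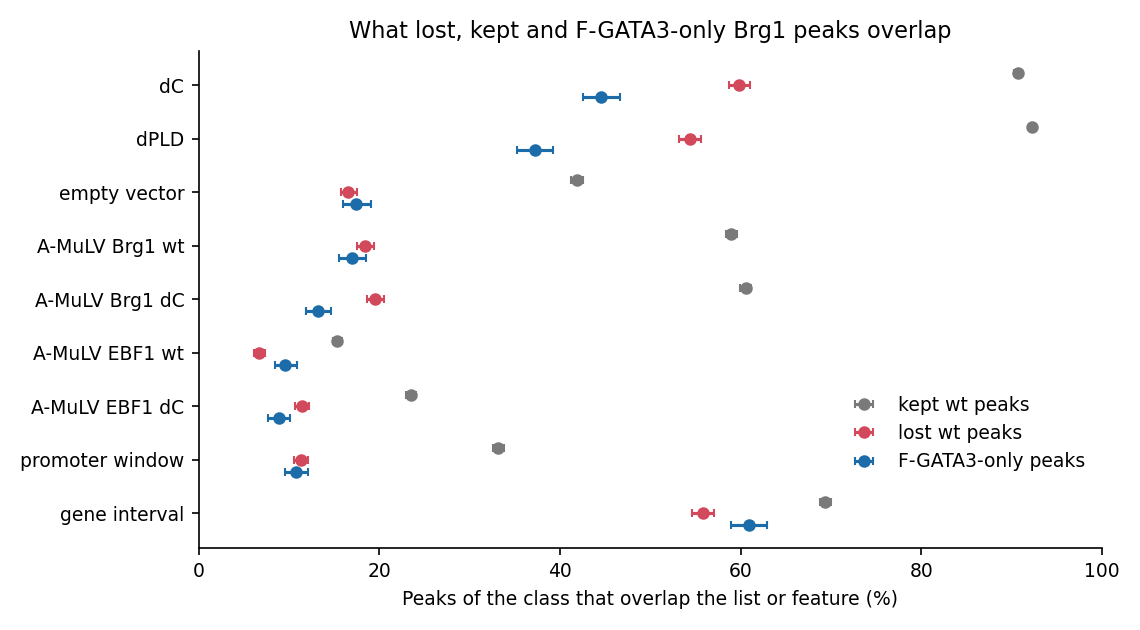
Share of kept wt, lost wt and F-GATA3-only Brg1 peaks (x axis, percent of the class) that overlap each other list or annotation (y axis), with exact 95% intervals. Kept peaks lie to the right of both other classes for every list and annotation shown, as with dC, where 90.7% of kept, 59.9% of lost and 44.6% of F-GATA3-only peaks overlap. The A-MuLV Brg1 lists reach down to a −log10 q of 1.37 (wt) and 1.33 (dC), while the other lists shown stop at about 10.0.

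Peaks were next parted by EBF1 sites, which were taken from the A-MuLV EBF1 lists and so not from these cells. Of the 6563 wt peaks on any such site 13.3% (12.5 to 14.2%) were lost with F-GATA3, against 25.7% (25.2 to 26.3%) of the others. Peaks on EBF1 sites had higher wt folds (median 8.87 against 6.83), and weighted to the folds of all wt peaks the shares were 20.0% and 23.4%. The 3 altered versions were set against the same wt list. Of all wt peaks the F-GATA3 list missed 23.0%, the dPLD list 16.4% and the dC list 16.4%. On any EBF1 site these shares were 13.3%, 12.2% and 18.1%. At the 478 wt peaks on sites called with EBF1 wt and not EBF1 dC, the F-GATA3 list missed 21.8% (18.1 to 25.7%), the dPLD list 41.8% (37.4 to 46.4%) and the dC list 60.5% (55.9 to 64.9%). These sites were chosen for lacking EBF1 dC, which bears on dC by construction, while F-GATA3 and dPLD had no part in the choice. With the 4 lists held to the length of the F-GATA3 list the values at these sites were 15.9%, 41.7% and 61.5%, and over all wt peaks 15.6%, 14.1% and 17.8%, where F-GATA3 no longer had the largest share. At the 3442 wt peaks on sites called with both EBF1 forms, these shares were 10.1%, 11.0% and 18.4%. At the 2643 on sites called with EBF1 dC alone they were 16.1%, 8.40% and 10.1%. The labelled stage moves with these shares, since wt and F-GATA3 cells are labelled pro-B and dC and dPLD cells are not, and its part was not tested.

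**Figure D3:**
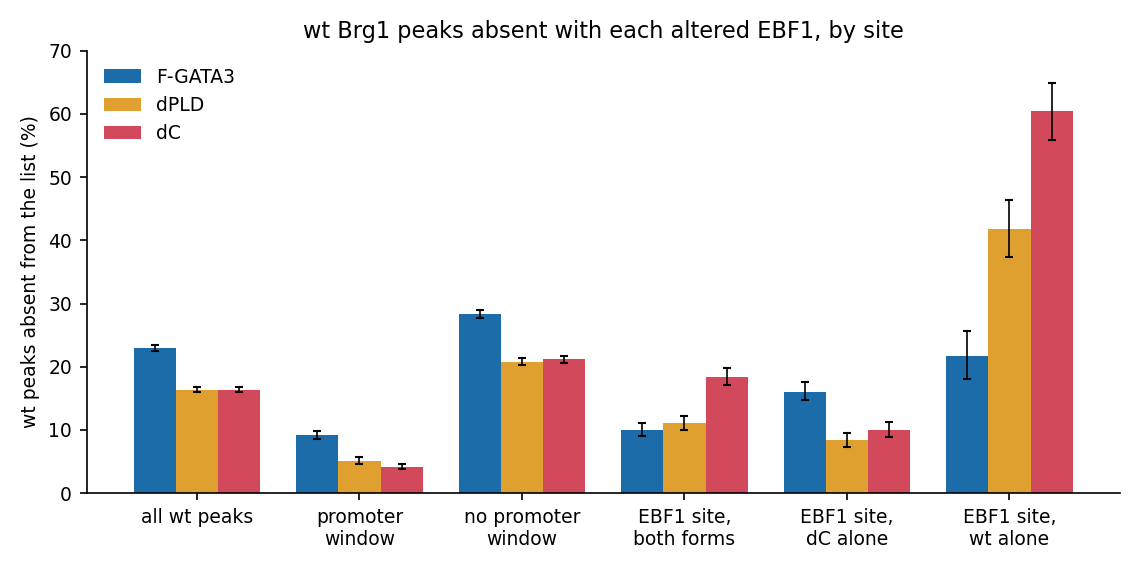
Share of wt Brg1 peaks (y axis, percent) with no peak in the F-GATA3, dPLD or dC list, over all wt peaks and by site (x axis), with exact 95% intervals. At sites called with EBF1 wt alone the bars stand at 21.8% for F-GATA3, 41.8% for dPLD and 60.5% for dC, while over all wt peaks the F-GATA3 bar, at 23.0%, is the highest.

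On F-GATA3's own side, 318 of the 2346 F-GATA3-only peaks (13.6%) lay on an A-MuLV EBF1 site, a share close to that of lost peaks (13.0%) and under that of kept peaks (25.2%). The kind of site differed. Sites called with EBF1 wt alone held 111 F-GATA3-only peaks, 4.73% (3.91 to 5.67%), beside 1.54% (1.26 to 1.87%) of lost and 1.65% (1.49 to 1.83%) of kept peaks. Sites called with EBF1 dC alone held 3.96% of F-GATA3-only, 6.30% of lost and 9.81% of kept peaks.

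The highest F-GATA3-only peaks stood in no other fetal liver list, though several coincided with EBF1 in A-MuLV cells. The highest, of fold 18.3, lay within Ryr2, which encodes a calcium release channel (chr13:11736491-11737450), on an A-MuLV EBF1 wt site (fold 6.79) without an EBF1 dC peak. The next, of fold 17.1, lay 9.04 kb from Dnaja4, which encodes a co-chaperone, on a site of EBF1 wt (9.85) and EBF1 dC (24.1). Hspg2, which encodes the basement membrane proteoglycan perlecan, held one of 15.3 with no A-MuLV EBF1 peak. Beyond the promoter shown above, Hlx had one of 14.0 at chr1:184734906-184736116, 2.41 kb from the gene, on a strong EBF1 site (23.8 with EBF1 wt and 27.4 with dC). Tafa2, which encodes a secreted chemokine-like protein, held one of 12.7 where A-MuLV Brg1 wt (29.5), EBF1 wt (26.9) and EBF1 dC (10.7) were called. At Mgll, which encodes monoacylglycerol lipase, a peak of 12.7 overlapped a promoter window and an EBF1 site (13.3 with EBF1 wt and 21.6 with dC). A peak of 12.9 lay 26.8 kb from Ifng, which encodes interferon gamma, and one of 12.6 lay 64.4 kb from Cebpb, which encodes a myeloid factor. The first was on no A-MuLV EBF1 site, and the second was on one called with EBF1 wt (9.38).
The remaining peaks of the 12 highest lay nearest Adamtsl3 (13.7), Clip2 (13.5), Rab11b (12.5) and Hs3st3a1 (12.4). Of the 12, 8 overlapped an A-MuLV EBF1 peak of either form, beside 5 of the 12 highest lost peaks described next. High peaks lay on such sites often: 1384 of 2936 wt peaks in the highest bin of wt fold did. F-GATA3 peaks were not binned by fold.

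The highest lost peaks were mostly still called with dC and dPLD, though less often than wt peaks of like fold. The highest, of wt fold 15.5, lay at chr13:111977475-111979140, 159 kb from Map3k1, which encodes a kinase of the JNK pathway, and was called with dC (8.79) and dPLD (10.3). A peak of 14.7 within Ptpn14, which encodes a tyrosine phosphatase, was called with dC (7.35) and dPLD (7.90), and one of 14.0 within Lpcat2, which encodes a lipid acyltransferase, with both at 7.16 and 7.27. Each of these 3 peaks lay away from A-MuLV EBF1 sites. Cnn1, which encodes calponin of smooth muscle, differed: its lost peak of 12.6 (chr9:22107109-22108787) was in no other fetal liver list, yet A-MuLV Brg1 wt (16.0), EBF1 wt (15.4) and EBF1 dC (9.41) were called there. A lost peak of 12.5 within Nr1d1, which encodes the clock repressor Rev-erb alpha, was called with dPLD (8.53) but not dC. Others of the 12 lay nearest Lrrc55 (13.4), Pde8a (12.9), Tmcc3 (12.7), Myrip (12.7), Pmp2 (12.2) and Zfp703 (12.2), all called with dC and dPLD. Of the 12 sites 9 were called with both dC and dPLD, and 1, at Tmcc3, with the empty vector (6.25). Over all wt peaks of the highest fold bin, lost or kept, 2864 of 2936 were called with both dC and dPLD. In the next bin 2760 of 2922 were.

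Genes were then read by the peaks within 10 kb of them. Of 21887 protein-coding genes 62.9% had a wt peak there, 21.5% a lost peak and 9.27% an F-GATA3-only peak. Of the 13758 with a wt peak, 34.2% had a lost peak and 7.41% had every wt peak lost. Genes with several peaks usually kept most: among the 1331 with 5 or more wt peaks, 301 had none lost, 73 had more than 50% lost and 0 had all lost. An F-GATA3-only peak without any wt peak was found at 302 genes.

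Among B-lineage genes, peaks were lost about as often as elsewhere. A lost peak lay near 18 of 32, beside 34.2% of genes with a wt peak, and 33 of their 168 wt peaks were lost, 19.6% (13.9 to 26.5%) beside 23% over all wt peaks. With lists of equal length a lost peak lay near 10 of the 32, beside 23.0% of all genes with a wt peak. Of the wt peaks near these genes 12.2% (7.42 to 18.7%) were then lost. That stood beside 13.9% of wt peaks near all protein-coding genes and 15.6% of all wt peaks. Every one of the 32 genes still had an F-GATA3 peak. The lost peaks had a median fold of 5.83, against 8.02 for the wt peaks of the list, and 1 of the 33 overlapped a promoter window. Pax5, which encodes the B-lineage commitment factor, had 10 wt, 7 F-GATA3, 8 dPLD, 7 dC and 0 empty-vector peaks. Its 4 lost peaks had folds of 5.83 to 6.83, while its highest wt peak (24.8) was kept, with an F-GATA3 maximum of 14.8. Bach2, which encodes a transcriptional repressor of lymphocytes, had 8 wt and 5 F-GATA3 peaks but 14 with dC, 12 with dPLD and 16 with the empty vector. Of its 4 lost peaks, with folds of 6.01 to 6.73, 3 overlapped an empty-vector peak. Ikzf1 and Ikzf3, which encode the zinc-finger factors Ikaros and Aiolos, went from 11 to 8 and from 9 to 7 peaks, each with 3 lost, at folds of at most 5.73. Ikzf3's lost peak at chr11:98542485-98543489 lay on an A-MuLV EBF1 wt site (8.62).
The highest lost peak of the list, 9.09, was at Bank1, which encodes a scaffold of B-cell receptor signalling, and was called with dC (9.32) and dPLD (8.53). Dntt, which encodes terminal transferase, had 5 wt, 3 F-GATA3, 5 dPLD and 6 dC peaks, and its 2 lost peaks had folds of 7.64 and 6.37. Bst1, which encodes the surface antigen BP-3, had 6 wt and 3 F-GATA3 peaks, with a highest lost fold of 6.76. The surrogate light chain genes Igll1 and Vpreb1 shared a lost peak of fold 5.00, and their shared highest peak was kept, at 27.6 with wt and 20.7 with F-GATA3. Ebf1 itself had 13 wt, 12 F-GATA3, 13 dPLD, 13 dC and 2 empty-vector peaks, with 2 lost (6.04 and 5.13). The 14 genes without a lost peak included Cd79a, Blnk, Rag1, Rag2, Foxo1, Cd22, Cd72, Pou2af1, Btk and Il7r, which span the receptor complex, its signalling, recombination and the IL7 receptor. Of the 140 F-GATA3 peaks near these genes 6 were F-GATA3-only, 4.29% (1.59 to 9.09%) beside 9.36% over all F-GATA3 peaks, near 6 of the 32 genes: Ms4a1 (5.82), Fcrla (5.34), Syk (5.34), Igll1 (5.25), Bank1 (5.08) and Bach2 (4.96).

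Genes of the GATA3 and type 2 programme had F-GATA3-only peaks about as seldom as genes at large. Of 16 such genes 2 had one, beside 9.27% of all protein-coding genes: Areg, which encodes the growth factor amphiregulin, at fold 5.98, and Il4ra, which encodes the IL-4 receptor chain, at 4.95. Each site was also called with dC (7.20 and 7.13) and dPLD (5.62 and 6.25). Gata3 had 0 peaks in all 5 fetal liver lists, as had the type 2 cytokine genes Il5 and Il13. A lost peak lay near 7 of the 11 members with a wt peak, beside 34.2% of such genes at large. Of their 28 wt peaks 10 were lost, 35.7% (18.6 to 55.9%), an interval that holds the 23% over all wt peaks. With lists of equal length a lost peak lay near 4 of the 10 members with a wt peak, beside 23.0% of such genes at large. Of the wt peaks near these genes 18.2% (5.19 to 40.3%) were then lost. That stood beside 13.9% of wt peaks near all protein-coding genes and 15.6% of all wt peaks. The highest was at Gfi1, which encodes a zinc-finger repressor, with wt fold 10.1, and was called with dC (13.3), dPLD (11.4) and the empty vector (5.68). Id2, which encodes an inhibitor of E proteins, had 3 wt and 1 F-GATA3 peaks, and Il9r, which encodes the IL-9 receptor, the same numbers. Il4, which encodes interleukin 4, had its only wt peak lost (5.62), and that site was in no other fetal liver list. Tox, which encodes an HMG-box factor of T cells, had 2 wt and 1 F-GATA3 peaks, and Rora, which encodes a nuclear receptor of innate lymphoid cells, 5 and 3.

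T-lineage genes had 13 of 56 wt peaks lost, 23.2% (13.0 to 36.4%), close to the 23% over all wt peaks. A lost peak lay near 7 of the 16 members with a wt peak, beside 34.2% of such genes at large. With lists of equal length a lost peak again lay near 7 of 16, beside 23.0% of such genes at large. Of the wt peaks near these genes 20% (10.0 to 33.7%) were then lost. That interval holds both the 13.9% of wt peaks near all protein-coding genes and the 15.6% of all wt peaks. Il2ra, which encodes CD25, had 7 wt, 3 F-GATA3, 4 dPLD, 6 dC and 2 empty-vector peaks. Its highest lost peak (8.49) was called with dC (6.63) and dPLD (5.46). In A-MuLV cells Brg1 wt (13.2), Brg1 dC (2.85) and EBF1 dC (8.07) were called at that site. Another of the 4 lost Il2ra peaks, of fold 6.15, overlapped a promoter window and an A-MuLV EBF1 wt site (6.09). Thy1, which encodes a surface antigen of T cells and some progenitors, had 3 wt, 1 F-GATA3 and 3 empty-vector peaks and 0 with dC or dPLD; its lost peaks had folds of 9.64 and 4.56. Cd2, which encodes an adhesion molecule, lost a peak of 9.31 that was called with dC (7.88), dPLD (4.94) and the empty vector (6.18). Cd8a and Bcl11b had no peak in any fetal liver list.

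**Figure D4:**
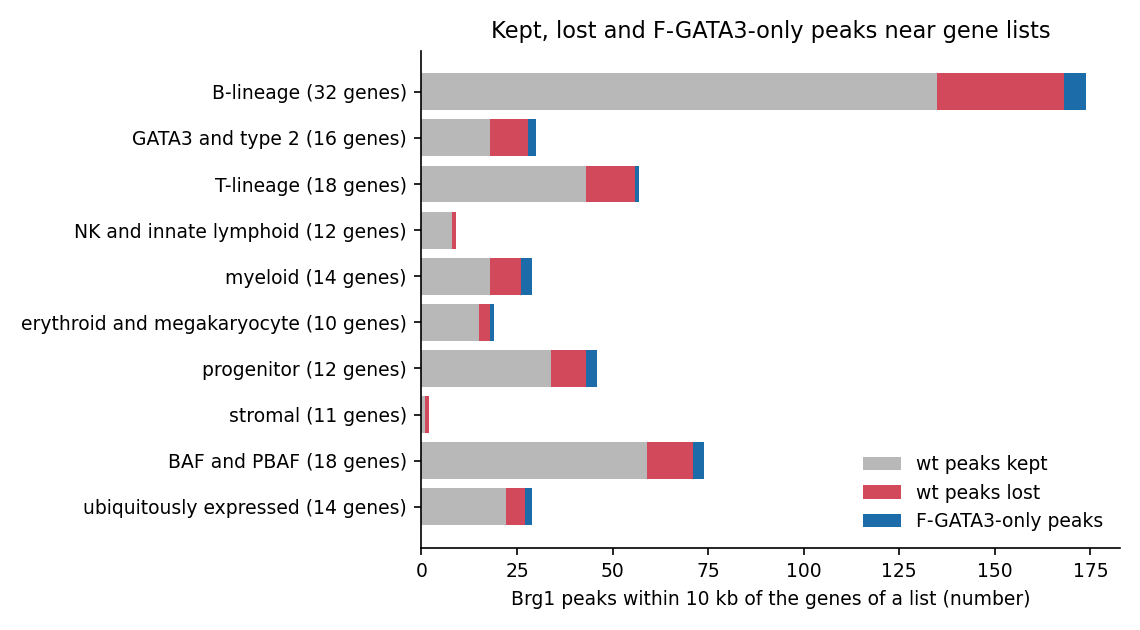
Number of Brg1 peaks within 10 kb of the genes of each list (x axis), stacked as wt peaks kept, wt peaks lost and F-GATA3-only peaks, for 10 gene lists (y axis). The B-lineage bar holds 33 lost of 168 wt peaks and 6 F-GATA3-only peaks, and the T-lineage bar 13 lost of 56 and 1 F-GATA3-only.

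The other lists had few regions each, and every interval of their lost shares held 23%. Progenitor genes had 9 of 43 wt peaks lost, among them 3 of 4 at Meis1 and 3 of 4 at Lmo2, which encode factors of blood stem cells, and F-GATA3-only peaks at Erg (6.46), Kit (6.14) and Runx1 (5.50). Myeloid genes had 8 of 26 lost, with Cd14 (6.91), which encodes a receptor for lipopolysaccharide, and Itgam (5.89), which encodes CD11b, highest. Cebpb had 2 F-GATA3-only peaks within 10 kb, of folds 5.75 and 5.04. Erythroid and megakaryocyte genes had 3 of 18 lost, led by Tfrc (6.37), which encodes the transferrin receptor, and 1 F-GATA3-only peak, at Itga2b (5.82). NK and innate lymphoid genes had 1 of 9 lost, at Klrb1c (5.71), which encodes NK1.1, and 0 F-GATA3-only peaks. The stromal list, chosen to mark feeder cells, had its only lost peak at Col1a1 (6.19). The BAF and PBAF subunit genes had 12 of 71 wt peaks lost, of which 6 were at Arid1b, whose product is a DNA-binding BAF subunit; Arid1b had 21 wt and 15 F-GATA3 peaks. Smarca4, the gene of Brg1, had 5 wt, 6 F-GATA3, 5 dPLD, 6 dC and 1 empty-vector peaks, with 1 lost (4.81) and 1 F-GATA3-only (6.62). Ubiquitously expressed genes had 5 of 27 lost, led by Ywhaz (7.10) and Hprt (6.55).

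The genes with the most lost peaks were chosen for that number, and many of them had many wt peaks. Of the 4709 genes with a lost peak, 21 had 6 or more. Tmem108, which encodes a transmembrane protein of neurons, had 22 wt and 14 F-GATA3 peaks, with 10 lost. Arhgap23, which encodes a GTPase-activating protein, had 14 wt and 5 F-GATA3 peaks, with 9 lost, and the gene 4933428G20Rik, within its interval, accounts for 4 of the same region (5 wt and 1 F-GATA3). Sh3pxd2a, which encodes the podosome scaffold TKS5, had 10 wt, 3 F-GATA3, 9 dPLD and 9 dC peaks, with 8 lost, the highest at 11.1. Foxp1, which encodes a forkhead factor needed by early B cells, had 27 wt, 19 F-GATA3, 29 dPLD, 32 dC and 10 empty-vector peaks, with 8 lost. Arhgap26 and Prkce had 9 lost peaks each, of 24 and 20, and Snx29 8 of 24.
Inpp4b and Kcnma1 parted by the other versions. Inpp4b, which encodes a phosphoinositide phosphatase, had 14 wt, 7 F-GATA3, 6 dPLD, 5 dC and 2 empty-vector peaks. None of its 7 lost peaks (folds 4.81 to 8.42) was called in another fetal liver list, and 1 of them lay on an EBF1 site (14.1 with EBF1 wt and 14.0 with dC). Kcnma1, which encodes a large-conductance potassium channel, had 6 wt, 1 F-GATA3, 9 dPLD, 15 dC and 0 empty-vector peaks. All 5 of its lost peaks were called with dC and dPLD, and the peak at chr14:23930425-23931189 had a fold of 8.91 with wt, 25.3 with dC and 16.1 with dPLD. Of genes with 5 wt peaks, Dnm3, Gpr132, Grb10, Mettl27 and Slc43a1 had 4 lost.

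The genes with the most F-GATA3-only peaks, 16 of which had 4 or more, were chosen for that number. Ank3, which encodes the adaptor ankyrin G, had 4 F-GATA3 peaks (folds 6.14 to 8.55) and 0 in the wt, dC, dPLD and empty-vector lists. None of the 4 lay on an A-MuLV Brg1 wt or EBF1 peak. Hlx had 5 F-GATA3 peaks, 1 each with wt, dC and dPLD, and 2 with the empty vector. Adamtsl3, which encodes an extracellular matrix protein, had 5 with F-GATA3, 1 each with wt, dC and dPLD and 0 with the empty vector. Itga9, which encodes an integrin chain, had 9 F-GATA3 and 5 wt peaks but 10 with dC, and Chd7, which encodes another chromatin remodeller, had 7 and 4 but 10 with dC and 9 with dPLD. Mgll had 10 F-GATA3 and 6 wt peaks, Gprc5c, which encodes an orphan receptor, 9 and 5, and Nol4l 13 and 9.

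**Figure D5:**
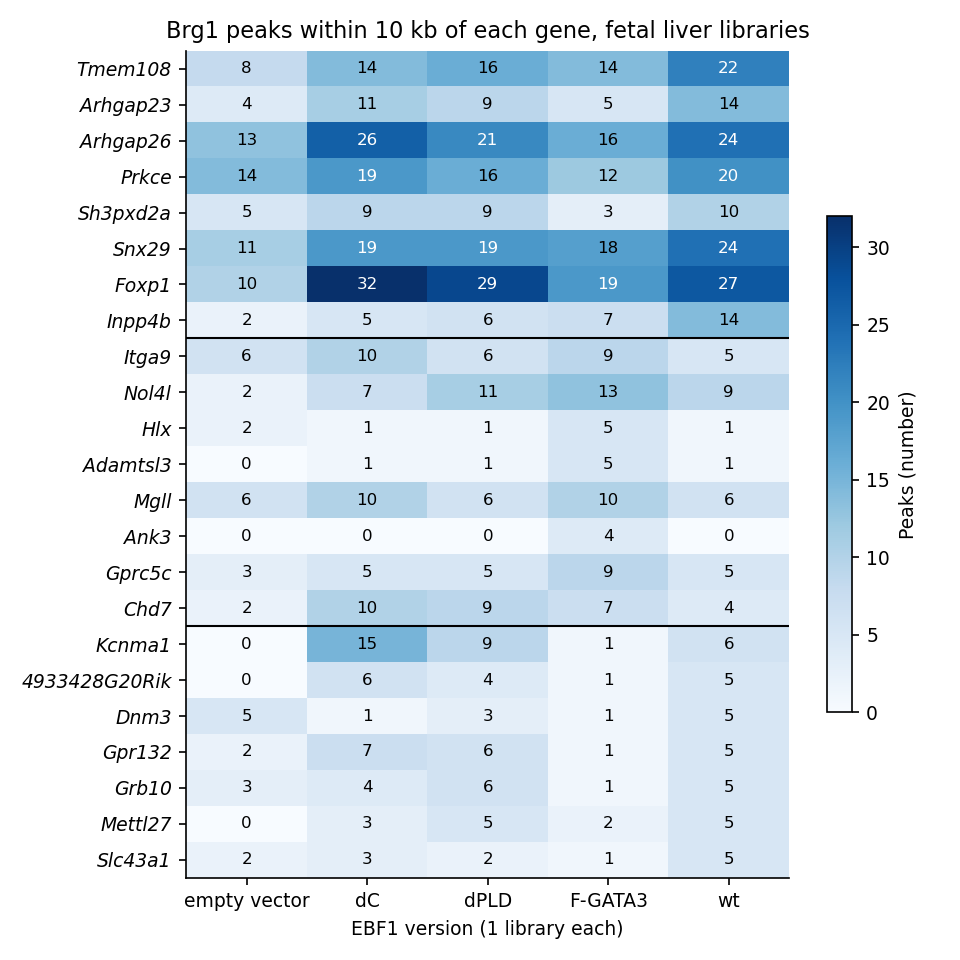
Number of Brg1 peaks within 10 kb of each gene (cells, colour scale) in the 5 fetal liver lists (x axis), with the genes with the most lost peaks on top, those with the most F-GATA3-only peaks in the middle and those with the largest share lost at the bottom (y axis). Ank3 has peaks with F-GATA3 alone, and Kcnma1 has 15 with dC, 9 with dPLD, 6 with wt and 1 with F-GATA3.

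Antigen receptor loci, counted after their values had been seen, differed in which versions kept Brg1. At Igk, the kappa light chain locus, 40 of 141 wt peaks were lost, 28.4% (21.1 to 36.6%), an interval that holds the 23% over all wt peaks. The F-GATA3 list had 108 peaks there, the dPLD list 69, the dC list 28 and the empty-vector list 2. All 40 were also absent with dC and 37 with dPLD. At Igh, the heavy chain locus, 30 of 111 wt peaks were lost, 27.0% (19.04 to 36.3%), which also holds 23%, and F-GATA3-only peaks numbered 11. Here the F-GATA3 list had 93, the dPLD list 124, the dC list 129 and the empty-vector list 53, and of the 30 lost peaks 7 were also absent with dC and 9 with dPLD. Igk and Igh had like shares lost with F-GATA3, while dC and dPLD had fewer peaks than wt at Igk and more at Igh. Both sets of absences are read against the same wt list. The share of all wt peaks of each locus, lost or kept, that was absent with dC or dPLD was not counted. Whether absence with dC or dPLD sets the lost peaks of a locus apart from the kept ones was thus not assessed.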

How the data were processed

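Lists of Brg1 and EBF1 ChIP-seq peaks were used, 1 library per group. The submitters' processing notes name the build GRCm38 and, in no stated role, MACS2 2.1.2, deepTools 3.3.1, Bowtie2 2.3.3.1 and SAMtools 1.9. Thresholds, duplicate handling and choice of input: not given in the sources used here. Each deposited list holds base positions, a score, the authors' fold enrichment (a ratio to local background at the summit) and the authors' p and q values as −log10.

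Only chromosomes 1 to 19, X and Y were kept (7 wt and 5 F-GATA3 peaks on scaffolds were left out). Overlap meant at least 1 shared base. An EBF1 site is a peak of either A-MuLV EBF1 list. Gene intervals (21887 protein-coding genes, of which 17492 had a promoter window) and 32851 promoter windows came from incomplete RefSeq tables for GRCm38.p6. Shares carry exact Clopper-Pearson 95% intervals (Python 3.11.15, scipy 1.17.1). Weighted shares average 10 bins of wt fold by the number of all wt peaks in each. Overlap counting was tested on simulated intervals.

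The regions, 10 gene lists (157 entries) and rules were chosen with earlier results of these data known. Named genes are those nearest the 12 highest peaks of each class, the 8 with most lost peaks, most F-GATA3-only peaks and largest share lost (5 or more wt peaks), up to 4 members per list by highest fold, and Ebf1, Gata3 and Smarca4; members named beyond these, and the receptor loci, were chosen after their values were seen. Alternatives changed the overlap rule, −log10 q minimum, list length, chromosomes, gene window and EBF1 list. Some genes that these rules name are not reported here.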

Additional observations from a re-analysis of the deposited data

How the results depend on the processing

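Of 71 recomputed shares and counts, 31 stayed within their interval or within 1.5 times the count and 40 moved. The main limits were a single library per version, unknown depth and lists of unequal length. For all wt peaks, the 22.97% lost became 32.4% with summits no more than 200 bp apart, 22.1% with peaks extended by 500 bp, 30.6% with a −log10 q of at least 20 in both lists, 5.90% (1061 peaks) with that minimum in the wt list alone, and 15.6% (3916 peaks against 6743) with equal lengths. The F-GATA3-only share of 9.36% became 20.8% (5218 peaks), 8.89%, 9.32% (1287 peaks), 1.71% (236) and 14.8% (3709) in the same order, against 2346. For the 1.71% the minimum was set in the F-GATA3 list alone. At EBF1 sites 13.3% of wt peaks were lost, and 25.7% away from them (20.0% and 23.4% weighted by fold); these became 11.5% and 24.7% with the EBF1 wt list alone, 21.1% and 34.4% with a −log10 q of at least 20 in both lists, and 9.99% and 17.4% with equal lengths. With equal lengths, B-lineage genes with a lost peak fell from 18 to 10 and type 2 genes from 7 to 4, while T-lineage genes stayed at 7. Of all genes with a wt peak, the share with a lost peak fell from 34.2% to 23.0%. T-lineage genes with an F-GATA3-only peak went from 1 to 4, and the share of all protein-coding genes with one from 9.27% to 14.4%. With 50 kb windows, F-GATA3-only peaks lay near 12 B-lineage, 5 type 2 and 3 T-lineage genes, and lost peaks near 11 type 2 and 13 T-lineage genes. With the gene interval alone, the type 2 counts were 4 lost and 1 F-GATA3-only. For these other windows the share over all genes was not counted, so the counts are not read as particular to a list. The following were chosen after seeing the data. Lost shares at and away from promoter windows were 26.4% and 32.7% with a −log10 q of at least 20 in both lists, and 6.48% and 19.7% with equal lengths. With equal lengths the X chromosome share went from 33.5% to 24.3%, the share absent with F-GATA3 at sites of EBF1 wt alone from 21.8% to 15.9%, and the shares of all wt peaks absent were 15.6% with F-GATA3, 17.8% with dC and 14.1% with dPLD, so the order of F-GATA3 (22.97% as deposited) and dC (16.4%) turned. Motifs at peak summits were not run. No paired analysis was possible because each group had 1 library.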

Other observations

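By chromosome, the share of wt peaks lost with F-GATA3 ran from 20.9% (chromosome 11) to 24.7% (chromosome 1) among the autosomes. On the X chromosome 158 of 472 wt peaks were lost, 33.5% (29.2 to 37.9%), against 22.8% (22.3 to 23.3%) on the autosomes, and after weighting to the folds of all wt peaks the values were 28.3% and 22.9%. With dC 18.2% of the X peaks and 16.4% of the autosomal peaks were absent, and with dPLD 21.8% and 16.3%. The median wt fold on X was 6.55, against 7.24 on the autosomes. The X chromosome held 120 empty-vector, 472 wt, 362 F-GATA3, 442 dPLD and 486 dC peaks. The sex of the embryos behind each library was not used here, and its part in these values was not tested.

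At the T-cell receptor loci, chosen after their values were seen, Tcra had 20 wt, 19 F-GATA3, 17 dPLD, 39 dC and 44 empty-vector peaks, with 3 lost and 2 F-GATA3-only. Tcrb had 11 wt, 7 F-GATA3, 14 dPLD, 15 dC and 12 empty-vector peaks, with 4 lost and 0 F-GATA3-only. All 4 lost Tcrb sites were called with dC and dPLD. At Igl, the lambda light chain locus, 12 wt and 10 F-GATA3 peaks were called, with 2 lost.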
